A study of Mus musculus with 2 samples.

Results

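The 9 genes described here are the TGF-beta ligands Tgfb1, Tgfb2 and Tgfb3, the latent TGF-beta binding proteins Ltbp1, Ltbp2, Ltbp3 and Ltbp4, the matrix gene Tgfbi and the latent TGF-beta docking receptor gene Lrrc32. They were chosen by name from 30142 named genes. Each was represented by exactly 1 transcript cluster (the set of array probes summarised into 1 value) whose sole platform symbol was that gene. RNA came from adipose-derived stromal cells, fibroblast-like progenitors grown in culture from the inguinal fat pad, and was measured on 1 array for Wisp1 KO and 1 array for WT. Mice of both genotypes had the C57BL/6J background and were 6 to 10 weeks old, and the cells were grown in DMEM with 15% fetal bovine serum. The Wisp1 KO was global: per the labels, exons 1 to 5 of Wisp1 (Ccn4) were floxed and the mice were mated with a line called Cre-neo. What drives Cre in that line, and whether an array holds cells of 1 mouse or of several, is not given in the sources used here.

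TGF-beta is secreted in a latent form, in which the cleaved propeptide stays folded around the mature growth factor. A latent TGF-beta binding protein, joined to the propeptide by disulphide bonds, ties this complex to fibrillin microfibrils and fibronectin in the matrix, and integrins, proteases or thrombospondin then release the active ligand. In fat, TGF-beta restrains the differentiation of progenitors into adipocytes and drives collagen production by stromal cells.

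Values are log2 expression values, and every difference is the Wisp1 KO value minus the WT value, so 1 unit is a 2-fold difference. With 1 array per genotype there was no replicate, no test and no p-value, and each difference compares these arrays rather than the genotypes. Differences of 1.5-fold or more (0.58 on the log2 scale) were counted. Genes entered these counts when their mean log2 value reached 4.65, the median over named genes, here called the expression floor. All 9 genes lay above it on both arrays. The deleted gene Wisp1 was at 5.40 in the Wisp1 KO array and at 7.79 in the WT array, a difference of -2.39, and where its probes lie relative to the deleted exons was not analysed here. Of the stromal markers matched, 10 of 12 reached the expression floor, among them Pdgfrb, Thy1 and Eng, while Nt5e and Dpp4 were below it on both arrays. The stromal markers Pdgfra and Ly6a were listed but not matched.

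Promoter windows, from 250 bases before to 50 bases after the annotated start, were matched for 7 of the 9 genes, all but Tgfb3 and Lrrc32 (RefSeq, GRCm38.p6). Those of Tgfbi and Ltbp1, the genes with the highest and lowest difference, and of Tgfb1 and Tgfb2, ligands that differed in opposite directions, are printed 5′ to 3′ on the gene's strand. Capitals mark matches on either strand to the letters CAGAC of a SMAD element, TGACTCA of the AP-1 element, TATAAA of the TATA box, GGGCGG of the GC box or CATTCC of the TEAD element. The windows lie at chr13:56609336-56609635 (plus strand) for Tgfbi, at chr17:75005279-75005578 (plus strand) and chr17:75178531-75178830 (plus strand) for the starts of Ltbp1, at chr7:25686752-25687051 (plus strand) for Tgfb1 and at chr1:186705940-186706239 (minus strand) for Tgfb2.
Tgfbi: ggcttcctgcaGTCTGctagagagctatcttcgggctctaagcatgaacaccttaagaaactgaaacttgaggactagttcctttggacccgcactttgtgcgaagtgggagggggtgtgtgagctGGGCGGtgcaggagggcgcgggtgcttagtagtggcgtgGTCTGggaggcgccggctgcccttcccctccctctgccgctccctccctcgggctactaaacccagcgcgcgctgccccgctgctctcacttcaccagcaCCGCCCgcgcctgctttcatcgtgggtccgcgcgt
Ltbp1, first start: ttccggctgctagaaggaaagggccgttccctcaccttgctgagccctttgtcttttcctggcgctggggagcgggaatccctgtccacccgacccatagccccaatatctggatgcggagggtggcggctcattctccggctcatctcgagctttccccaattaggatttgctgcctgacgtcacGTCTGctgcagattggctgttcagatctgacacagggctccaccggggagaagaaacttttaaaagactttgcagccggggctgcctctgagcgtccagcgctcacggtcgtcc
Ltbp1, second start: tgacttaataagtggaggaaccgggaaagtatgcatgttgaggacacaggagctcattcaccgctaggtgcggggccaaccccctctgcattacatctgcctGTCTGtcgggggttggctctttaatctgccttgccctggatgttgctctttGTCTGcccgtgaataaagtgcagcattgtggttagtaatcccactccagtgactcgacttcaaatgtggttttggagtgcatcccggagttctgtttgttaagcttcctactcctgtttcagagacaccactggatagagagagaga
Tgfb1: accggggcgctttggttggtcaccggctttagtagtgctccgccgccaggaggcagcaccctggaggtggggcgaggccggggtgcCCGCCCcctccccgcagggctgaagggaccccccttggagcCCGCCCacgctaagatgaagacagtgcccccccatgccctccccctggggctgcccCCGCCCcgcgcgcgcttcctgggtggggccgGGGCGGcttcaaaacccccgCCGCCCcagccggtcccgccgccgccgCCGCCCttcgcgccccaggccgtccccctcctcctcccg
Tgfb2: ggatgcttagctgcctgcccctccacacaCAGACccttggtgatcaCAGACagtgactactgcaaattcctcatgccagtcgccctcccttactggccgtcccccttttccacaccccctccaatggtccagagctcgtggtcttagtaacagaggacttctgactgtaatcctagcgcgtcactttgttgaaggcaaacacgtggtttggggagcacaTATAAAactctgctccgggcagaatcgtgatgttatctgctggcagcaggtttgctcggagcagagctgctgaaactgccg

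These windows differed in base composition and in the elements they held. The Tgfb1 window was 77.0% G and C and held 6 GC boxes and none of the other elements, whereas the Tgfb2 window was 54.3% G and C and held 1 TATA box and 2 SMAD elements. The Tgfbi window held 2 SMAD elements and 2 GC boxes. The Ltbp1 windows held 1 and 2 SMAD elements and no other match. Of 32851 mouse promoter windows of this length, 49.6% held a SMAD element, 35.7% a GC box, 14.7% a TEAD element, 13.6% a TATA box and 5.20% an AP-1 element, so a SMAD match is common. No TEAD element was found in the windows of the 7 genes, and the sole AP-1 element was in that of Ltbp3, where it overlaps a SMAD element. A match describes letters and shows no binding.

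Of the 9 genes, 6 were higher and 3 lower in the Wisp1 KO array, with a median difference of 0.10. Over the 15072 genes that reached the expression floor 56.9% were higher, 39.9% were lower and the median was 0.03, so the split of the members was near that of all such genes. Tgfbi was the single member at least 1.5-fold different, and none reached 2-fold. Of the same 15072 genes 0.717% were higher by 1.5-fold or more, 0.464% were lower by as much, and 1.18% differed that much in either direction. At 2-fold these shares were 0.0663% and 0.0995%. In either direction, 8 of the 9 members thus stayed within 1.5-fold.

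**Figure D1:**
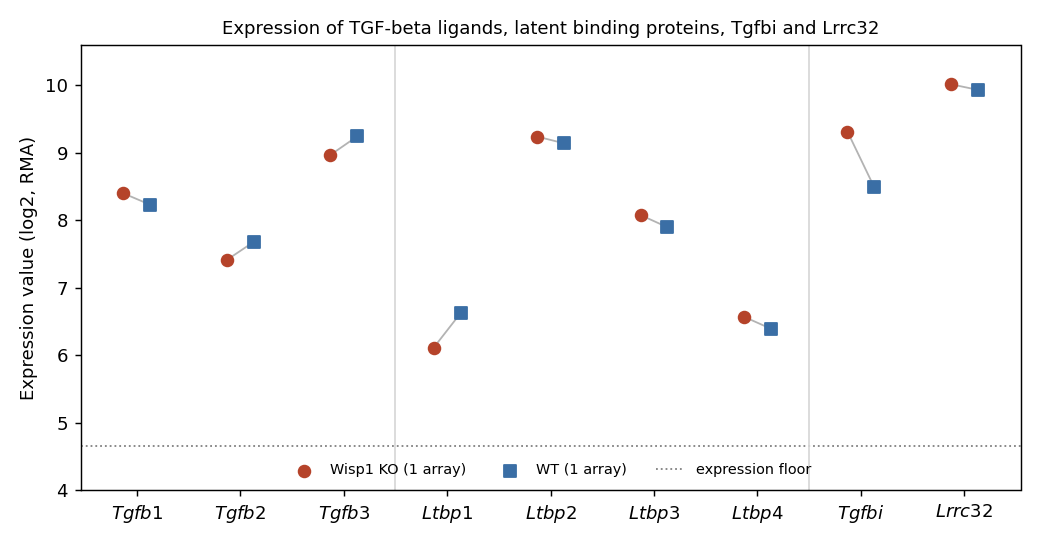
Log2 expression value of each gene in the Wisp1 KO array (circles, left) and the WT array (squares, right), with a line joining the values of 1 gene and a dotted line at the expression floor, 4.65. Each point is 1 array and heights are not comparable between genes, whose probes differ. Tgfbi has the steepest line, with 9.31 in Wisp1 KO and 8.49 in WT, and the lines of Tgfb2, Tgfb3 and Ltbp1 slope the other way.

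The ligand genes did not differ in 1 direction. Tgfb1 encodes the ligand most widely expressed in immune and stromal cells. It was at 8.40 in Wisp1 KO and 8.23 in WT, a difference of 0.17 (1.12-fold). Tgfb2, which has essential roles in heart, skeletal and eye development, was at 7.41 in Wisp1 KO and 7.68 in WT, a difference of -0.27. Tgfb3, the ligand required for palate fusion, was at 8.97 in Wisp1 KO and 9.24 in WT, a difference of -0.28. The Tgfb2 and Tgfb3 values in Wisp1 KO were 83.1% and 82.6% of those in WT on the linear scale, and their differences lay 0.01 apart. The difference of Tgfb1 was 0.44 above each of them. For the ligands these are modest sizes: within 0.5 log2 units of the mean level of Tgfb1, 28.1% of 1734 genes differed at least as much in either direction. The same share was 9.58% of 2724 genes for Tgfb2 and 12.3% of 957 genes for Tgfb3.

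Among the latent binding protein genes, Ltbp1 was lower and the others were slightly higher in Wisp1 KO. Ltbp1, which tethers all the TGF-beta isoforms, was at 6.11 in Wisp1 KO and 6.62 in WT, a difference of -0.51 (1.42-fold lower), just short of 1.5-fold. Of 3864 genes of like level 67, or 1.73%, differed at least as much, itself included. RefSeq lists the pair of starts shown above for this gene, and the single transcript cluster gives 1 value for all its transcripts, so transcripts from the different starts were not told apart.

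Ltbp3, a carrier of latent TGF-beta with known roles in bone and teeth, was at 8.08 in Wisp1 KO and 7.90 in WT, a difference of 0.18. Ltbp4, which binds latent TGF-beta weakly and organises elastic fibres with fibulins, was at 6.57 in Wisp1 KO and 6.39 in WT, a difference of 0.18. Ltbp2, a microfibril protein of the family that is not known to bind latent TGF-beta, was at 9.24 in Wisp1 KO and 9.14 in WT, a difference of 0.10. The differences of these genes lay within 0.08 of each other, and that of Ltbp3 was 0.69 above that of Ltbp1. They were common sizes for their levels, since 23.3% of 2136 genes near Ltbp3, 20.7% of 3813 near Ltbp4 and 51.5% of 889 near Ltbp2 differed at least as much.

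**Figure D2:**
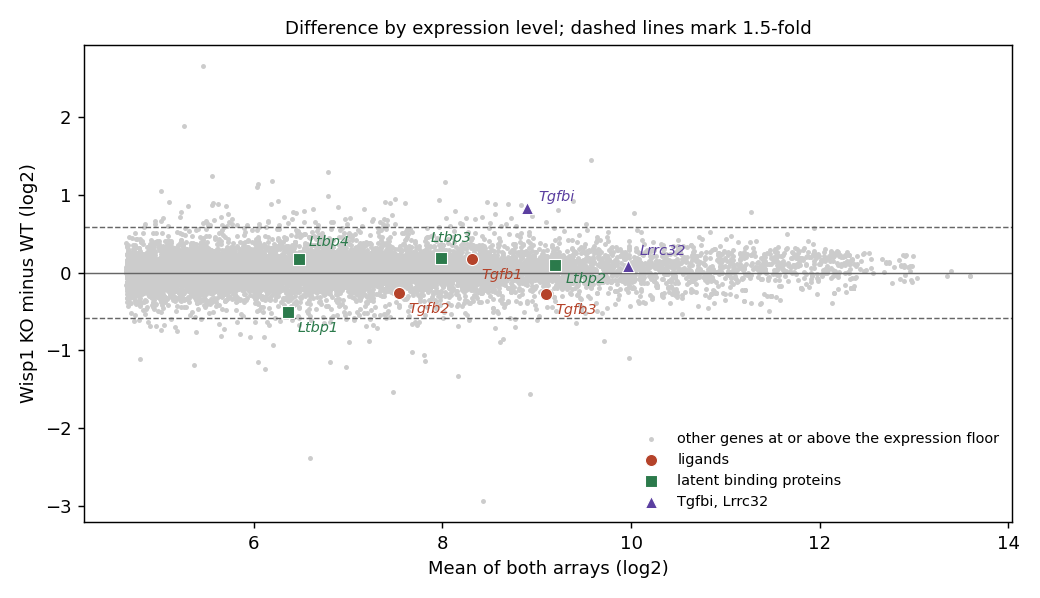
Difference between Wisp1 KO and WT (log2) against the mean of both arrays (log2) for the 15072 genes that reached the expression floor (grey) and for the ligands (circles), latent binding proteins (squares) and Tgfbi and Lrrc32 (triangles). Dashed lines mark 1.5-fold in each direction: Tgfbi lies above the upper line at 0.83 and Ltbp1 just inside the lower line at -0.51. The other members run from -0.28 for Tgfb3 to 0.18 for Ltbp3.

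Tgfbi gave the largest difference of the 9 genes. It encodes a secreted matrix protein with fasciclin domains that was named for its induction by TGF-beta, binds integrins and collagens, and is not itself a ligand. Tgfbi was at 9.31 in Wisp1 KO and 8.49 in WT, a difference of 0.83 (1.77-fold). Of the 15072 genes 30 had a higher difference, and of 1118 genes of like level 10, or 0.894%, differed at least as much, itself included. Lrrc32 encodes GARP, which holds latent TGF-beta on the surface of regulatory T cells and platelets and is also found on mesenchymal stromal cells. It was at 10.01 in Wisp1 KO and 9.93 in WT, a difference of 0.08, and 64.6% of 568 genes of like level differed at least as much.

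Over the pair of arrays, the genes nearest to Tgfbi by Euclidean distance of their log2 values, out of 11361 searched, were Itga11, Col6a2 and Egln1. The search left out genes below the expression floor, predicted genes, genes with symbols ending in Rik, pseudogenes, microRNAs and small RNAs. Itga11, a collagen-binding integrin subunit, lay at a distance of 0.10, with 9.26 in Wisp1 KO and 8.40 in WT. Col6a2, a chain of the pericellular collagen VI, lay at 0.23, with 9.09 in Wisp1 KO and 8.48 in WT. Egln1, an oxygen-sensing prolyl hydroxylase, lay at 0.24, with 9.09 in Wisp1 KO and 8.58 in WT. With 2 arrays this likeness covers a level and a difference and nothing more.

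Myeloid cells also express Tgfbi, and macrophage markers were mostly, though not all, higher on the same array. Of 13 macrophage markers 9 were higher and 3 lower in Wisp1 KO, and their summed linear value was 538 in Wisp1 KO and 353 in WT (array units). Lyz2 (1.29) and Fcer1g (0.90) had the largest differences, and Lyz2, the brightest of the 13, was the largest part of both sums. Cd68 (0.58), Tyrobp (0.51) and C1qb (0.33) were higher too, as was Ctss (0.63, below the expression floor). Of the 13 markers 7 were below the expression floor. Csf1r (0.01), Adgre1 (-0.08), Itgam (0.09) and Ptprc (0.00) were below it on both arrays. Cd14, which reached it, was lower (-0.18). The part of macrophage markers in the Tgfbi difference was not tested. A different number of cells of a type and a different amount of RNA per cell cannot be told apart in such bulk RNA.

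Markers of the cells best known for GARP, the product of Lrrc32, had like sums on both arrays. Of 6 platelet markers 4 reached the expression floor, and all 6 together had a summed linear value of 231 in Wisp1 KO and 222 in WT. Itgb3 (0.25) and Gp5 (-0.58, below the expression floor) had the largest differences. Of 7 T cell markers 6 were below the expression floor, the sums over all 7 were 110 in Wisp1 KO and 111 in WT, and Ctla4 (-0.15) and Cd3e (0.15) differed most. Pericyte and smooth muscle markers were mostly lower, 6 of 9, with sums of 1957 in Wisp1 KO and 2439 in WT. Cnn1 (-0.24), the brightest of the 9, made up most of both sums and is also on the list of TGF-beta target genes. Mcam (-0.69) and Myh11 (-0.51) differed most, while Des (0.41), Abcc9 (0.22) and Rgs5 (0.08) were higher. Rgs5, Kcnj8 and Abcc9 were below the expression floor on both arrays. The part of pericyte and smooth muscle markers in the lower values of Ltbp1, Tgfb2 and Tgfb3 was not tested.

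The other genes of the pathway were taken from 7 lists, with 96 of 102 distinct genes matched. Of these 58 were higher, 36 lower and 2 equal, with a median difference of 0.07, a split near the 56.9% higher and 39.9% lower over all genes that reached the expression floor. The expression floor was reached by 88, of which 6 (6.82%) were higher by 1.5-fold or more and none lower by as much, where the shares over all genes were 0.717% and 0.464%. Some lists share genes, and as the lists were written with earlier results of these data known, their counts describe them and support no claim about the pathway.

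**Figure D3:**
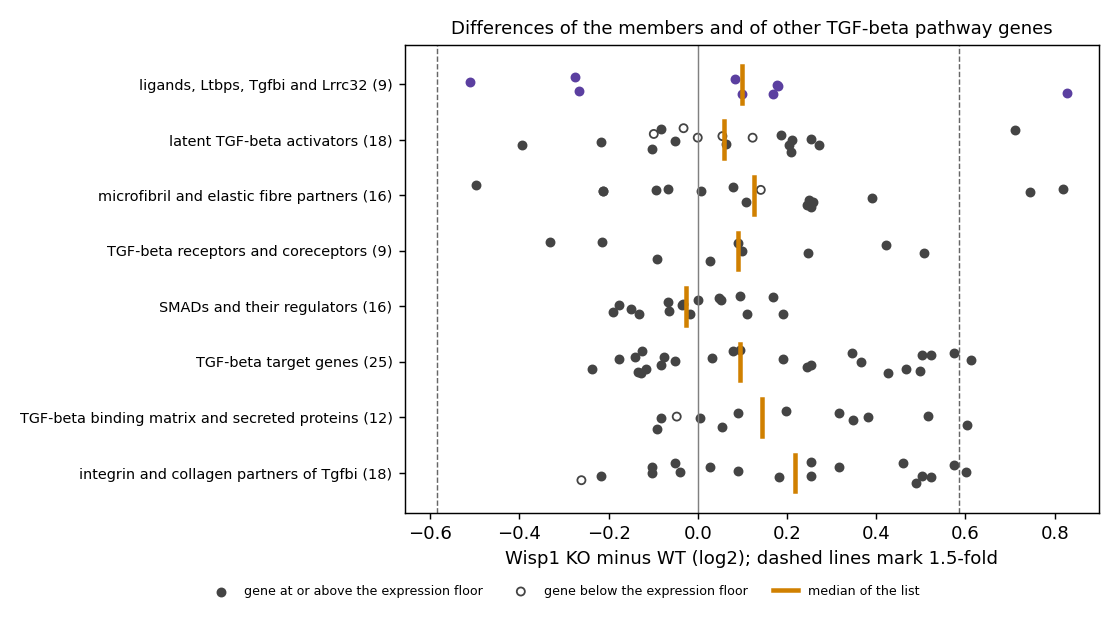
Difference between Wisp1 KO and WT (log2) of each gene in the 9-gene set and in 7 lists of other TGF-beta pathway genes, with the number matched in parentheses. Filled points reached the expression floor, open points did not, bars are list medians and dashed lines mark 1.5-fold. List medians run from -0.03 for SMADs and their regulators to 0.22 for the partners of Tgfbi, and Tgfbi and Fbn2 reach furthest to the right.

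Upstream of the receptors, the activators of latent TGF-beta were mixed. Of 18 genes 10 were higher, 7 were lower, the median difference was 0.06, and a single gene was at least 1.5-fold higher. That gene was Pcsk5, a proprotein convertase, at 6.68 in Wisp1 KO and 5.97 in WT (0.71). Plau, the urokinase that generates plasmin, was at 8.62 in Wisp1 KO and 9.02 in WT (-0.39). The integrin subunit Itgav differed by -0.10 and Thbs1, the thrombospondin that activates the latent complex, by -0.08. Itgb6 and Itgb8, the partner subunits best known for activation, were below the expression floor on both arrays.

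Among genes of the microfibrils that hold Ltbp complexes, Fbn2 and Mfap4 were higher by 1.5-fold or more. Of 16 microfibril and elastic fibre genes 11 were higher, 5 were lower, and the median difference was 0.13. Fbn1 and Efemp2 were listed but not matched, so Fbn2 is the sole fibrillin of the list with a value. Fbn2, a fibrillin, was at 7.58 in Wisp1 KO and 6.76 in WT (0.82). Mfap4, a microfibril-associated protein, was at 7.84 in Wisp1 KO and 7.10 in WT (0.75). Fn1, the fibronectin on which Ltbp1 is first laid down, differed by 0.25, and Efemp1, a fibulin, by -0.50.

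Of 12 genes for matrix and secreted proteins that bind or modify TGF-beta 9 were higher, 3 were lower, and the median difference was 0.14. Lum, the proteoglycan lumican, was at 5.39 in Wisp1 KO and 4.79 in WT (0.60) and Aspn, which encodes asporin, a TGF-beta-binding proteoglycan, was at 10.02 in Wisp1 KO and 9.50 in WT (0.52). In the receptor list 6 of 9 genes were higher, 3 were lower and none reached 1.5-fold. Its median difference was 0.09. Tgfbr2, which binds the ligand first, was at 8.80 in Wisp1 KO and 8.29 in WT (0.51), and the coreceptor Tgfbr3, which presents Tgfb2, was at 9.54 in Wisp1 KO and 9.12 in WT (0.42). Tgfbr1, the kinase that phosphorylates SMADs, differed by 0.09.

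Downstream, the SMAD genes and their regulators lay close to 0. Of 16 genes 6 were higher, 9 were lower, the median difference was -0.03, and differences ran from -0.19 to 0.19. The extremes were Smad6, an inhibitory SMAD, at 7.54 in Wisp1 KO and 7.73 in WT, and Skil, a SMAD corepressor, at 6.96 in Wisp1 KO and 6.77 in WT. Of 25 TGF-beta target genes 15 were higher, 10 were lower, and the median difference was 0.09. Angptl4, a lipase inhibitor induced by TGF-beta and by low oxygen, was at 6.99 in Wisp1 KO and 6.38 in WT (0.61), the sole target at 1.5-fold. Postn, the matrix protein periostin and a fasciclin-domain relative of Tgfbi, was at 12.23 in Wisp1 KO and 11.65 in WT (0.57). Targets did not share a direction: Nox4 differed by 0.47 and Bhlhe40 by 0.50, but Smad7 by -0.18, Ccn2 by -0.13 and Acta2 by -0.13.

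Genes for partners of the Tgfbi protein went in both directions. Of 18 genes 12 were higher, 6 were lower, and the median difference was 0.22. All 3 collagen VI chains on the list were higher, Col6a1 by 0.49, Col6a2 by 0.60 and Col6a3 by 0.46, and so were Col1a1 (0.50), Col1a2 (0.52) and Col2a1 (0.18), while Col4a1, a basement membrane collagen, was lower (-0.10). Of the integrin subunits, Itgb1 (-0.22), Itgav (-0.10), Itgb5 (-0.05) and Itga3 (-0.04) were lower, as was Itga6 (-0.26), which was below the expression floor, and Itgb3 was higher (0.25).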

How the data were processed

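Total RNA of 1 Wisp1 KO and 1 WT sample was labelled with biotin by the GeneChip WT PLUS kit, per the labels' protocols. The values deposited by the authors are on a log2 scale, 1 for each transcript cluster, and RMA and Partek are the tools listed in the submitters' processing notes. Versions, the arrays normalized together and the build of the array design are not given in the sources used here. The scale was inferred from the range, 1.74 to 13.65 in Wisp1 KO and 1.88 to 13.62 in WT. RMA equalises array distributions, which hides any shift common to most genes. The number of arrays limits the precision.

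Of 65956 clusters 30604 listed 1 distinct symbol. For 22818 of these the symbol was taken from RefSeq (GRCm38.p6) through the Entrez ID, and the others kept the platform symbol. Clusters with several symbols (2146) or none were left out, and the brightest cluster stood for a gene. Named were the 9 genes, Wisp1, in each pathway list the genes that reached the expression floor (a mean of 4.65) with a 1.5-fold or one of the 2 largest differences, in each marker list the 2 largest, and the 3 genes nearest to Tgfbi. Other genes named were chosen after their values were seen. The members and lists (7 of the pathway, 8 of markers) were chosen with earlier results of these data known. Alternatives were median, quantile and loess centring (span 0.3), the mean over clusters, clusters with several symbols, other filters, 2-fold and list means. Python 3.11.15 was used with pandas 2.3.3, numpy 2.4.6, matplotlib 3.10.9 and statsmodels 0.14.6, and the computations were tested on simulated data.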

Additional observations from a re-analysis of the deposited data

How the results depend on the processing

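The direction of each of the 9 genes and of each pathway list median was kept under every alternative run. Tgfbi ranged from 0.80 to 0.84 and was at least 1.5-fold higher throughout, Ltbp1 ranged from -0.55 to -0.50 and never reached 1.5-fold, and the median over the 9 genes ranged from 0.07 to 0.11. Each member has 1 cluster, so the rules for genes with several could not alter its value. At 2-fold in place of 1.5-fold, 0 members and 0 other pathway genes in either direction were counted, in place of 1 and 6, and 25 genes overall in place of 178. The 6 other pathway genes past 1.5-fold numbered 4 with loess centring, 4 with quantile normalization and 7 with median centring. Without the filter on dim genes the share of all genes past 1.5-fold was 0.753% in place of 1.18%. Dim genes are compressed by RMA, so their small differences may be understated. No array could be left out, and no paired analysis was possible because each genotype has 1 array.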

Other observations

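Markers of 3 other cell types of fat were listed as well. Of 9 endothelial markers 6 were higher and 3 lower, with summed linear values of 206 in Wisp1 KO and 190 in WT, and 7 were below the expression floor. Those included Cdh5, at 4.62 in Wisp1 KO and 3.81 in WT, and Emcn, at 4.04 in Wisp1 KO and 3.24 in WT. Of 8 mature adipocyte markers 3 were higher and 5 lower, with a median difference of -0.12 and sums of 754 in Wisp1 KO and 731 in WT. The hormone genes Retn (-1.08) and Adipoq (-0.64), both below the expression floor, differed most. The 4 adipocyte markers that reached the floor ran from -0.15 for Pnpla2 to 0.23 for Lpl, the brightest of the 8 and so the largest part of both sums. Of 7 mesothelial markers 4 were higher and 2 lower, with sums of 175 in Wisp1 KO and 196 in WT, and 4 were below the expression floor. Upk1b, a uroplakin, was at 4.25 in Wisp1 KO and 5.35 in WT (-1.11). The other mesothelial markers ran from -0.07 for Wt1, a mesothelial transcription factor, to 0.04 for Krt8.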
